A study of Mus musculus with 35 samples.

Results

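Amino acid transporter genes were taken from whole-kidney expression arrays by symbol, as all genes whose name starts with Slc1a, Slc3a, Slc6a, Slc7a, Slc36a, Slc38a or Slc43a except Slc38a3. The platform annotation gave 62 such genes of 18193 measured, each read by its brightest probe set. Of these, 43 passed the filter on dim signals (a mean log2 signal of at least 5.273) and were tested among 13004 genes. They comprise 6 Slc1, 2 Slc3, 13 Slc6, 10 Slc7, 3 Slc36, 6 Slc38 and 3 Slc43 genes. The symbols also bring in genes that carry no amino acid. Slc6a2 and Slc6a4 move noradrenaline and serotonin, Slc43a3 moves nucleobases, and Slc7a6os is a gene on the strand opposite to Slc7a6.

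Diabetes came from OVE26, a line with a calmodulin transgene driven in the pancreatic beta cells that leaves the mice short of insulin from early life. Diabetic and control mice were both FVB/NJ, and the labels say no more of the controls. Mice aged 2 months gave 6 diabetic and 6 control arrays, those aged 4 months 7 diabetic and 4 control arrays, and those aged 8 months 6 of each. The labels do not say whether each array is a separate animal, so the p-values measure the spread between these arrays.

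The kidney filters free amino acids and takes nearly all of them back in the proximal tubule. Carriers in the brush border pull amino acids into the cell with sodium or by exchange, and a second set on the basolateral side passes them to the blood. Several carriers work as pairs of a glycoprotein heavy chain (Slc3a1 or Slc3a2) and a transporting light chain from the Slc7 family. Other members move taurine, betaine and creatine, which tubule and medullary cells use as osmolytes or energy buffers, or feed amino acid sensing at the lysosome. When amino acids run short, cells raise the transcription factor Atf4, which acts through a composite DNA element in genes of amino acid uptake and synthesis.

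Promoter windows of 250 bases before the transcription start were found in the RefSeq table (GRCm38.p6) for 46 of the 62 genes, 67 windows in all. They were searched on both strands for TGATGNAA, a form of the amino acid response element, and for CAAAGTCCA, a form of the element of the proximal tubule factor Hnf4a. The first occurred in 3.45% of 32851 windows of this length and in 4 of the 67 windows here, which belong to Slc7a7, Slc7a11 and Slc6a21. The second occurred in 0.384% of all windows and in 1 of the 67, that of Slc3a1. No overlap between both motifs occurred in these genes. Among members with a window, Slc3a2, Slc7a1 and Slc43a2, which were higher in diabetic kidneys at 8 months, held neither. Shown are the windows of the main brush border heavy chain and of the light chains with the element, written 5' to 3' towards the start site, with matches in capitals.
Slc3a1, chr17:85028097-85028346, plus strand, match 39 bases before the start: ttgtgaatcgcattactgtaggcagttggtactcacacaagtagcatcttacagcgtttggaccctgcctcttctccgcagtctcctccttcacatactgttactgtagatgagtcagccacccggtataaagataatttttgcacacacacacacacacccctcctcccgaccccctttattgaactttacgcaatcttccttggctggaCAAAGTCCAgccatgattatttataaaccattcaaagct
Slc7a11, chr3:50443614-50443863, minus strand, matches 66 and 47 bases before the start: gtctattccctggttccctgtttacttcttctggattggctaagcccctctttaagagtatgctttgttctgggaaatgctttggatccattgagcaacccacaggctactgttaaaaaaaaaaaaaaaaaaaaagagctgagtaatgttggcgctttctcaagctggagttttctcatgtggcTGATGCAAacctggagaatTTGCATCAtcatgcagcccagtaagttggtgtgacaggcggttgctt
Slc7a7, chr14:54417703-54417952, minus strand, match 243 bases before the start: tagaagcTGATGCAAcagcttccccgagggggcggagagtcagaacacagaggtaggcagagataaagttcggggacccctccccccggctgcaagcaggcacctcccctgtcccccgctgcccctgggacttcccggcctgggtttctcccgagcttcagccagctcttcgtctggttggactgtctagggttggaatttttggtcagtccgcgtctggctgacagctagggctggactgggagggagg
Slc7a11, the cystine and glutamate exchanger, was too dim to be tested (mean log2 signal 4.29), and its window holds the element in both orientations. Another window of Slc7a7 also holds a match, 141 bases before its start. These matches describe letters in a window and not bound sites.

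All arrays had high Xist (at least 10.11) and low signals of 3 Y-linked genes (at most 4.92), so all came from female mice by these genes. Mean signals of the arrays lay at 6.43 to 6.44 at 2 months, 6.02 to 6.04 at 4 months and 6.54 at 8 months, and levels are therefore compared within an age only. At 2 months, arrays 5 and 6 of each group lay away from the others on the leading principal component, which held 42.8% of the variance, at 9.3 to 36.6 against -14.1 to -7.2. Control array 6 of that age also had an actin 3'/5' log2 ratio of 2.56, the highest of the 2-month arrays. At 4 months, controls 3 and 4 had Dbp signals of 8.75 and 8.02, where the other arrays of that age lay at or above 10.24. Dbp is a clock gene whose level swings over the day. It also differed between arrays at the other ages. At 8 months diabetic arrays 1, 2 and 5 read 8.25, 8.14 and 7.32, against 9.48 to 10.88 in controls, and at 2 months diabetic arrays 1, 5 and 6 and control 6 read from 7.95 to 9.29. Per3, another clock gene, was lower in diabetic kidneys at 8 months (-0.76 ± 0.22, adjusted p = 0.0152). Of the cell markers, the 10 proximal tubule genes averaged 11.88 to 12.85 in the arrays.

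Members were called in both directions at each age, and most were called at 8 months. The same held over all genes. Called means a limma adjusted p under 0.05 over 13004 genes. At 2 months, 7 of 43 tested members were called (16.3%), where 2.54% of all genes were. Of these, 4 were higher in diabetic kidneys (0.754% of all genes were) and 3 lower (1.78%). At 4 months 2 were called (4.65%), 1 higher and 1 lower, where 0.969% of all genes were (0.415% higher and 0.554% lower). At 8 months 12 were called (27.9%), 4 higher (9.87% of all genes) and 8 lower (6.95%), where 16.8% of all genes were. The groups did not overlap for 7 members at 2 months (1.5% of all genes), 4 at 4 months (4.81%) and 4 at 8 months (9.7%).

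Over the 43 members the median log2 differences at the 3 ages in turn were -0.01, 0.02 and -0.02, next to -0.01, 0.01 and 0.00 over all genes tested. In total 16 members were called at an age or more. By family at 8 months, 5 of 13 Slc6 genes fell and 0 rose, 2 of 10 Slc7 genes fell and 1 rose, and 1 of 6 Slc38 genes went each way. In the Slc3 and Slc43 families 1 gene each rose, of 2 and of 3, and none of 6 Slc1 and 3 Slc36 genes was called at that age. No family list was tested as such.

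**Figure D1:**
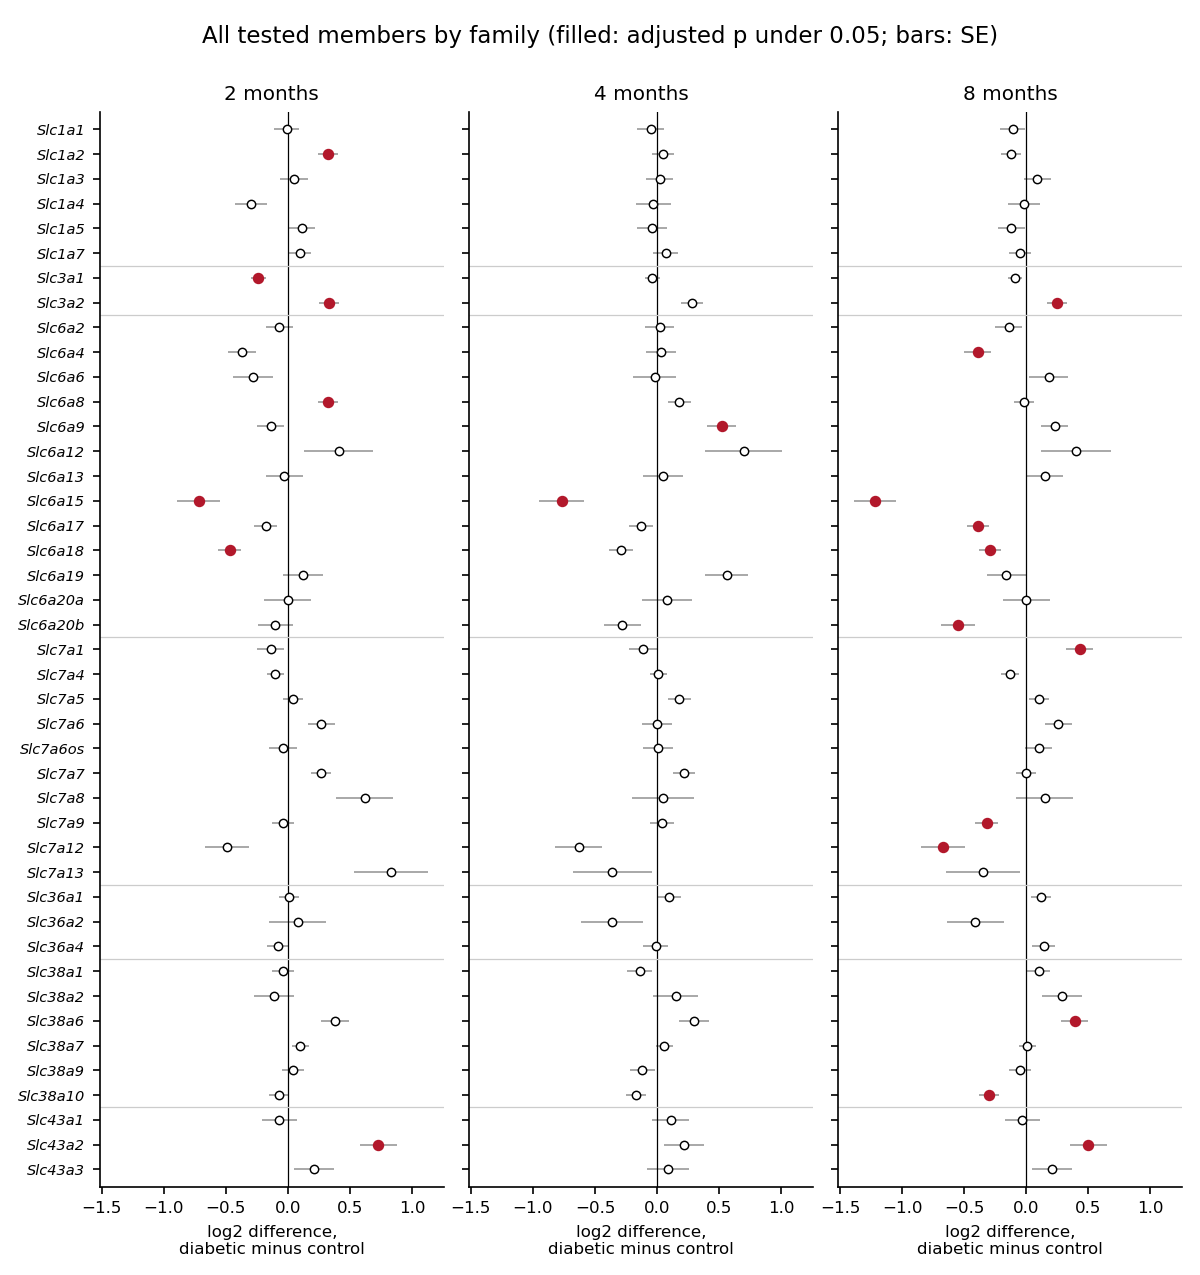
The log2 difference (x axis, diabetic minus control) of each of the 43 tested members at 2, 4 and 8 months, with bars for the SE of the limma fit and filled points for an adjusted p under 0.05. Most points lie near 0, and Slc6a15 is filled at all 3 ages, at -0.72, -0.77 and -1.22.

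Slc6a15 differed most of all members at 8 months. It encodes a sodium-coupled carrier of branched-chain amino acids and proline that is best known from brain. At 2 months its signal (probe set 1426712_at) was 8.57, 8.89 and 9.12 (lowest, median and highest, in log2 units, as in all such triples below) in diabetic kidneys, against 9.23, 9.55 and 10.26 in controls. At 4 months the diabetic arrays read 8.07, 8.36 and 8.44, against 8.64, 8.61, 9.45 and 9.55 in control arrays 1 to 4. At 8 months they read 8.44, 8.64 and 9.31, against 9.41, 9.97 and 10.31 in controls. Every diabetic array was thus below every control of its age.

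The differences for Slc6a15 were -0.72 ± 0.17 (SE of the limma fit; adjusted p = 0.0128) at 2 months, -0.77 ± 0.18 (adjusted p = 0.0234) at 4 months and -1.22 ± 0.17 (adjusted p = 2.45e-06) at 8 months, the last a 2.32-fold lower level. The 4-month call rests on single arrays. Without control 3 the difference was -0.64 (adjusted p = 0.197), without control 4 -0.61 (adjusted p = 0.255), without diabetic array 5 -0.73 (adjusted p = 0.0585) and without diabetic array 6 -0.74 (adjusted p = 0.0516). Without both controls 3 and 4, which were low in Dbp, it was -0.34 (adjusted p = 1). With all arrays kept and a clock covariate (Arntl minus Dbp signal of each array) the difference was -0.69 (adjusted p = 0.0835). Over all 13 settings the adjusted p lay between 0.00913 and 1. The 8-month call held in all 13 settings and without any 1 of the 12 arrays, at an adjusted p of at most 0.000579.

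**Figure D2:**
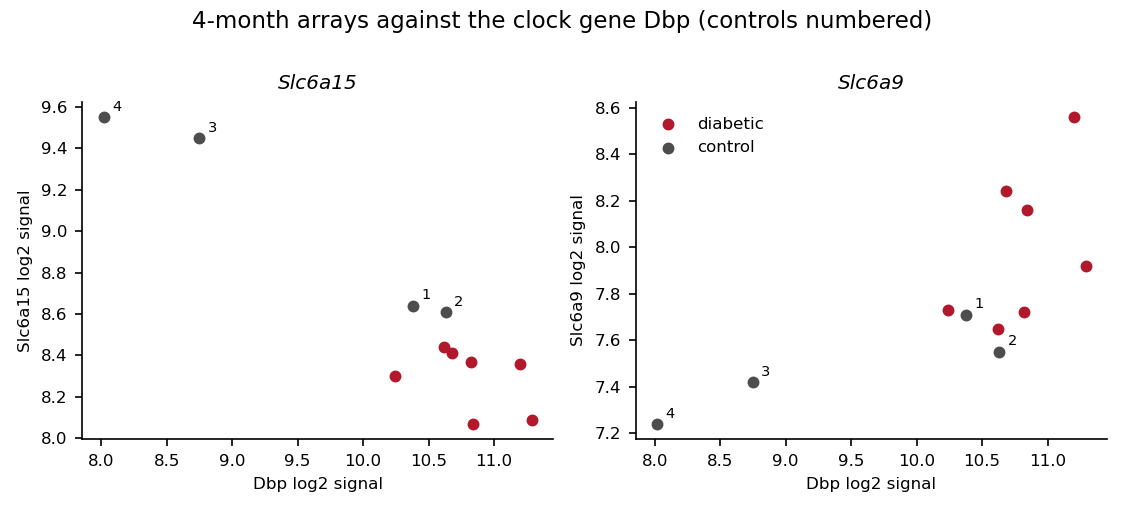
Signals of Slc6a15 and Slc6a9 (y axes, log2) against that of the clock gene Dbp (x axes, log2) in the 7 diabetic and 4 numbered control arrays at 4 months. Controls 3 and 4 sit apart at the lowest Dbp, with the highest Slc6a15 (9.45 and 9.55) and the lowest Slc6a9 (7.42 and 7.24).

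Slc6a17, a carrier of neutral amino acids into synaptic vesicles in brain, had signals of 7.35, 7.60 and 7.97 in diabetic kidneys at 8 months, against 7.89, 8.03 and 8.12 in controls (probe set 1436137_at). The groups overlapped by 1 diabetic array, and the difference was -0.39 ± 0.09 (adjusted p = 0.00238). A second probe set of the gene gave -0.40 ± 0.08 (adjusted p = 0.000472) and another, dimmer one -0.07 ± 0.07. At 2 and 4 months the differences were -0.18 ± 0.09 and -0.13 ± 0.10, both short of the threshold.

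Among brush border carriers, the neutral amino acid carrier Slc6a18 was lower in diabetic kidneys at 2 and 8 months. Slc6a18 and the broader carrier Slc6a19, which is mutated in Hartnup disorder in humans, take up neutral amino acids from the filtrate, with Slc6a18 placed in the later, straight part of the proximal tubule. Slc6a18 (probe set 1451879_a_at) read 11.12, 11.53 and 11.56 in diabetic kidneys at 2 months, against 11.58, 11.89 and 12.28 in controls. At 4 months it read 11.29, 11.34 and 11.55, against 11.75, 11.47, 11.67 and 11.69 in controls 1 to 4, and at 8 months 11.29, 11.46 and 11.70, against 11.65, 11.78 and 11.89 in controls. The groups were apart at 2 months and overlapped by 1 diabetic array at each later age.

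The differences for Slc6a18 were -0.47 ± 0.09 (adjusted p = 0.00194) at 2 months, -0.29 ± 0.10 (adjusted p = 0.169) at 4 months and -0.29 ± 0.09 (adjusted p = 0.0201) at 8 months. Without diabetic array 3 the 8-month difference was -0.25 (adjusted p = 0.0664). It was the only member called in the 2-month arrays 5 and 6 taken alone (-0.60, adjusted p = 0.0329), and without those arrays it was -0.40 (adjusted p = 0.00399). With each age fitted alone the 2-month call was lost (-0.47, adjusted p = 0.106).

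Slc6a19 was not called at any age. It read 11.06, 11.67 and 11.87 in diabetic kidneys at 4 months, against 11.13, 11.13, 10.80 and 10.75 in controls 1 to 4, a difference of 0.56 ± 0.17 (adjusted p = 0.137), or 0.25 (adjusted p = 0.446) with a clock covariate (Arntl minus Dbp signal of each array). At 2 and 8 months the differences were 0.12 ± 0.16 and -0.16 ± 0.16. Collectrin (Cltrn), the partner that carries Slc6a18 and Slc6a19 to the kidney brush border, differed by -0.11 ± 0.06, -0.05 ± 0.06 and -0.06 ± 0.06 at 2, 4 and 8 months, none of them called.

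Mice have a pair of genes related to the human imino acid carrier SLC6A20, which takes up proline. Slc6a20b (probe set 1422899_at) read 10.43, 11.04 and 11.23 in diabetic kidneys at 8 months, against 11.35, 11.47 and 11.53 in controls, with no overlap. The difference was -0.55 ± 0.14 (adjusted p = 0.00421), and a second probe set gave -0.63 ± 0.13 (adjusted p = 0.000743). At 4 months Slc6a20b stood at -0.28 ± 0.15 and at 2 months at -0.10 ± 0.14. Slc6a20a read 9.04, 9.65 and 10.00 in diabetic kidneys at 8 months, against 9.16, 9.60 and 9.99 in controls, a difference of 0.00 ± 0.19, and was near 0 at 2 and 4 months too (0.00 ± 0.19 and 0.08 ± 0.20). Its 2-month value was -0.30 without arrays 5 and 6 (adjusted p = 0.461) and 0.59 in those arrays alone (adjusted p = 0.244).

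The carrier of cystine and dibasic amino acids is the pair of Slc3a1 and Slc7a9, whose human genes are mutated in cystinuria. Its parts passed the test at different ages. The heavy chain Slc3a1 (probe set 1448741_at) read 12.36, 12.43 and 12.57 in diabetic kidneys at 2 months, against 12.57, 12.68 and 12.81 in controls, and the highest diabetic array lay just below the lowest control. The difference was -0.24 ± 0.06 (adjusted p = 0.0149), and it was -0.04 ± 0.06 at 4 months and -0.09 ± 0.06 at 8 months. The 2-month call was lost after quantile normalization over all arrays (-0.19, adjusted p = 0.111) and in 4 more of 14 settings, whose adjusted p lay between 0.00604 and 0.416.

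The light chain Slc7a9 (probe set 1448783_at) read 11.80, 12.24 and 12.54 in diabetic kidneys at 8 months, against 12.46, 12.53 and 12.61 in controls. The spread was wider among diabetic kidneys (SD 0.26, against 0.06 in controls, n = 6 each), and the groups overlapped. The difference was -0.32 ± 0.09 (adjusted p = 0.00951), next to -0.04 ± 0.09 at 2 months and 0.04 ± 0.10 at 4 months. The brush border glutamate and aspartate carrier Slc1a1 stood at -0.01 ± 0.10, -0.05 ± 0.11 and -0.11 ± 0.10 at the 3 ages, and at 8 months read 11.28, 11.57 and 11.75 in diabetic kidneys and 11.57, 11.66 and 11.78 in controls.

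**Figure D3:**
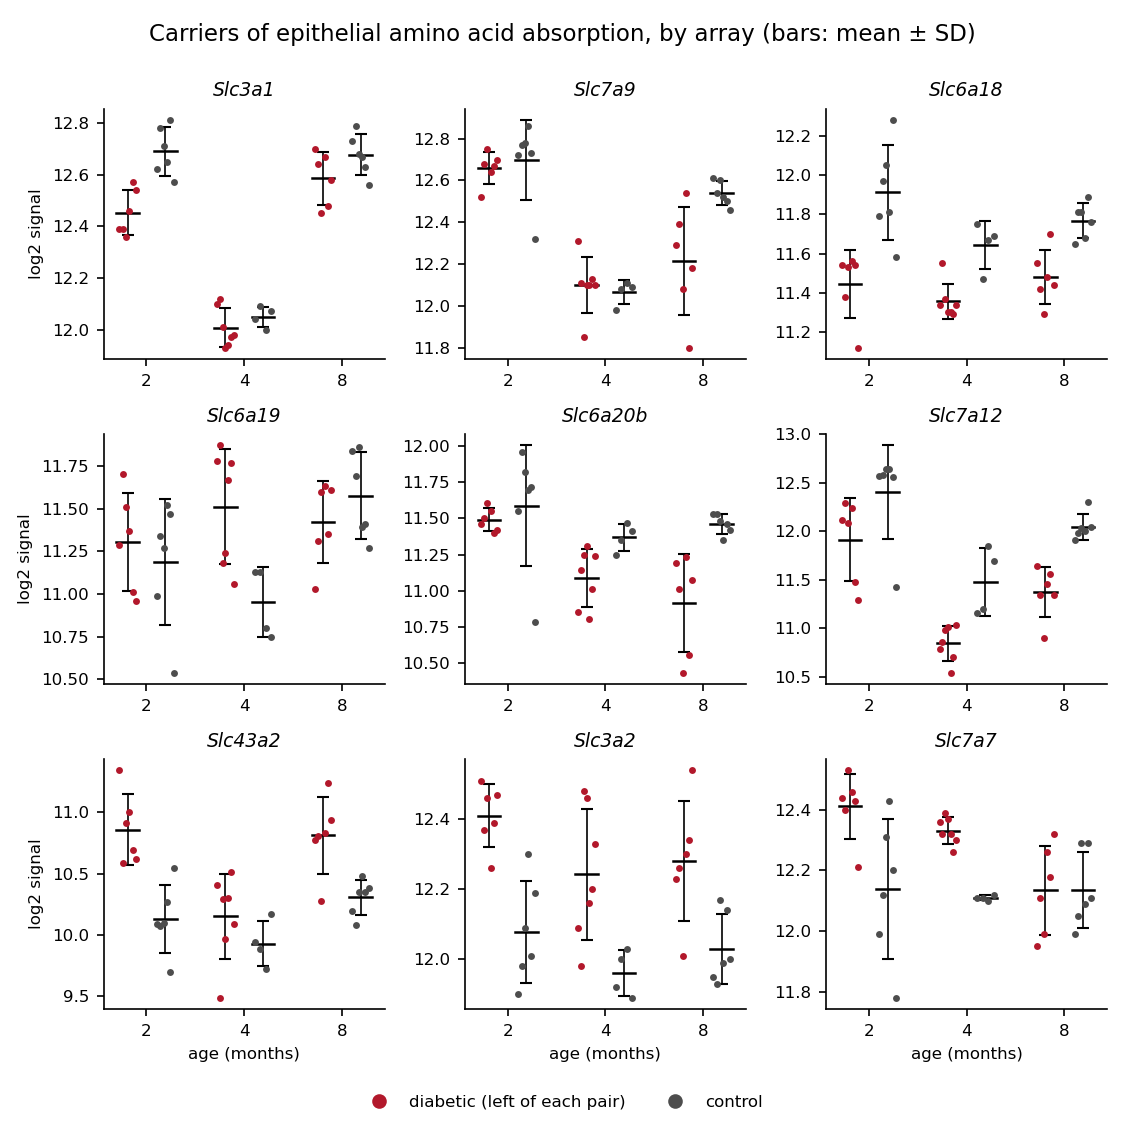
Log2 signals (y axes) of 9 carriers of epithelial amino acid absorption in each array by age in months (x axes), diabetic arrays left and control arrays right, with mean and SD as bars. Slc6a18 is apart at 2 months, Slc6a20b and Slc7a12 are apart at 8 months, and Slc43a2 is higher in diabetic arrays at 2 months (10.59 to 11.34, against 9.70 to 10.55 in control arrays).

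Slc7a12, a light chain related to carriers of small neutral amino acids, had negative differences at every age and passed the test at 8 months. It read 10.90, 11.39 and 11.64 in diabetic kidneys at 8 months, against 11.91, 12.02 and 12.30 in controls (probe set 1419579_at). At 4 months it read 10.54, 10.86 and 11.03, against 11.16, 11.20, 11.85 and 11.69 in controls 1 to 4, again with no overlap. At 2 months it read 11.29, 12.10 and 12.29, against 11.42, 12.57 and 12.64 in controls. The differences were -0.49 ± 0.18 (adjusted p = 0.15) at 2 months, -0.63 ± 0.19 (adjusted p = 0.117) at 4 months and -0.67 ± 0.18 (adjusted p = 0.00668) at 8 months. Without the low-Dbp controls 3 and 4 the 4-month value was -0.34 (adjusted p = 1). At -0.63, the 4-month difference was called in 3 of 13 settings. With each age fitted alone its adjusted p was 0.0275. Leaving out the 2-month arrays 5 and 6 gave an adjusted p of 0.00298, and fitting them as a batch 0.0173. Without control 6 the 2-month value was -0.68 (adjusted p = 0.007), and without diabetic array 6 it was -0.36.

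With the replicate number as a block in limma, Slc7a12 passed at 2 months as well (-0.49, adjusted p = 0.0217). Same-numbered arrays deviated together at that age, but arrays with different numbers were not compared, so the pairing is not known. The fit with the block called 11 members at 2 months, all 7 of the fit without it and Slc7a12, Slc7a13, Slc7a7 and Slc38a6. The share of all genes that it called is not given here, so the count is not read as particular to the members. Slc7a13, an aspartate and glutamate light chain that pairs with Slc3a1 in the straight proximal tubule, read 6.97, 8.13 and 9.60 in diabetic kidneys at 2 months, against 6.24, 7.60 and 7.85 in controls. Its difference was 0.83 ± 0.30 (adjusted p = 0.146, and adjusted p = 0.0275 with the block), and -0.36 ± 0.32 and -0.35 ± 0.30 at 4 and 8 months. The 4-month value was -0.14 without control 4 and -0.09 without controls 3 and 4. Without arrays 5 and 6 the 2-month value was 1.11 (adjusted p = 0.0099), and in those arrays alone 0.27 (adjusted p = 0.634).

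Of 5 markers of the straight proximal tubule, Slco1a6 and Aadat fell at 2 months, Aadat at 4 months, and Slc22a7, Slco1a6 and Aadat at 8 months, while Cyp7b1 and Atp11a passed at no age. Over all genes 1.78%, 0.554% and 6.95% were lower at the 3 ages in turn. The mean signal of the 5 ran from 10.51 to 10.97 in diabetic and from 10.97 to 11.25 in control arrays at 2 months, from 10.08 to 10.64 in diabetic and from 10.55 to 11.35 in control arrays at 4 months, and from 10.49 to 11.05 in diabetic and from 11.06 to 11.69 in control arrays at 8 months. At 4 months the gap lay with controls 3 and 4 (11.35 and 11.30), while controls 1 and 2 (10.72 and 10.55) were near the diabetic arrays. General proximal tubule markers had 0 of 10 called at 2 and 4 months, and 7 lower and 1 higher at 8 months (6.95% and 9.87% of all genes). At 8 months their mean signal ran from 11.88 to 12.40 in diabetic and from 12.43 to 12.45 in control arrays. The part of these shifts in the carriers' differences was not tested. In whole-kidney RNA, fewer cells of a type and less RNA per cell cannot be told apart.

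**Figure D4:**
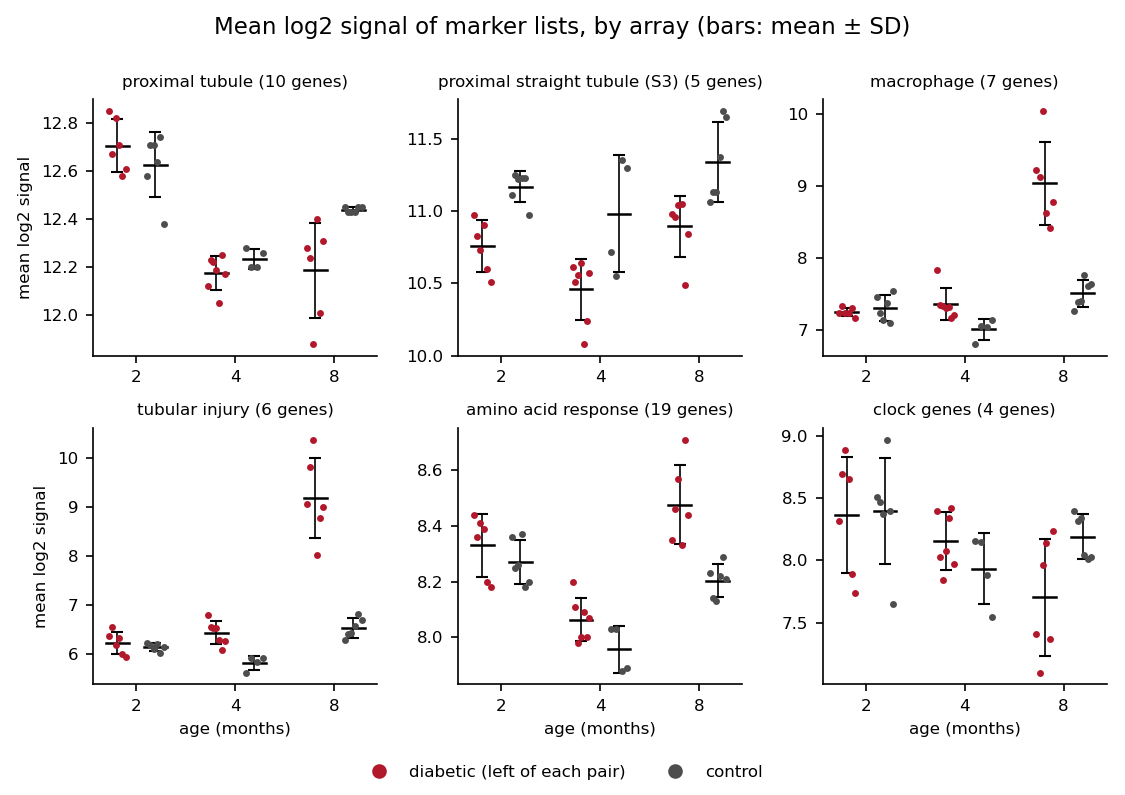
Mean log2 signal (y axes) of 6 lists of genes that are no members, by array and age in months (x axes), diabetic arrays left and control arrays right, with mean and SD as bars. The straight tubule list is lower in diabetic arrays at 2 and 8 months, at 4 months 2 of the 4 controls (10.72 and 10.55) are near the diabetic arrays, and at 8 months the proximal tubule list is lower (at most 12.40 in diabetic and at least 12.43 in control arrays) and the macrophage list higher (at least 8.41 in diabetic and at most 7.76 in control arrays).

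Among basolateral carriers, Slc3a2 and Slc43a2 rose at 2 and 8 months. Slc3a2, the heavy chain of the basolateral exchangers and an activation antigen of many cells, read 12.26, 12.43 and 12.51 in diabetic kidneys at 2 months, against 11.90, 12.05 and 12.30 in controls (probe set 1425364_a_at). At 4 months it read 11.98, 12.20 and 12.48, against 11.92, 12.00, 12.03 and 11.89 in controls 1 to 4, and at 8 months 12.01, 12.28 and 12.54, against 11.93, 12.00 and 12.17 in controls. The groups overlapped at each age. The differences were 0.33 ± 0.08 (adjusted p = 0.0216), 0.28 ± 0.09 (adjusted p = 0.15) and 0.25 ± 0.08 (adjusted p = 0.0316).

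Both calls of Slc3a2 depended on the settings. The 2-month call was lost without arrays 5 and 6 (0.33, adjusted p = 0.0734), with each age fitted alone (adjusted p = 0.1) and where all arrays were given the same mean and SD (adjusted p = 0.0802). The 8-month call was lost with that scaling (0.21, adjusted p = 0.18) and with the clock covariate (0.24, adjusted p = 0.0512). Leaving out single arrays lost them too. At 2 months this held for control 1 (0.30, adjusted p = 0.0654) and control 2 (0.31, adjusted p = 0.0599), and at 8 months for diabetic arrays 5 and 6 and controls 1, 2, 4 and 6, with differences from 0.20 to 0.25 and an adjusted p from 0.0533 to 0.0999.

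Slc43a2, a sodium-independent carrier that lets branched-chain and aromatic amino acids leave the tubule cell, was 1.66-fold higher at 2 months and 1.42-fold higher at 8 months. It read 10.59, 10.80 and 11.34 in diabetic kidneys at 2 months, against 9.70, 10.09 and 10.55 in controls, with no overlap (probe set 1439965_at). At 8 months it read 10.28, 10.82 and 11.24, against 10.08, 10.35 and 10.48 in controls, and 1 diabetic array lay within the controls. At 4 months it read 9.49, 10.29 and 10.51, against 9.94, 9.89, 9.72 and 10.17 in controls 1 to 4. The differences were 0.73 ± 0.15 (adjusted p = 0.00525), 0.22 ± 0.16 (adjusted p = 0.709) and 0.50 ± 0.15 (adjusted p = 0.0177). Without diabetic array 5 the 8-month value was 0.42 (adjusted p = 0.0618).

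The probe sets of Slc43a2 did not all move alike. The other 2 gave 0.26 ± 0.13 and 0.76 ± 0.29 at 2 months and -0.06 ± 0.13 and 0.59 ± 0.29 at 8 months, and neither was called. With the mean of all its probe sets the 8-month call was lost (0.34, adjusted p = 0.112), while the 2-month call held. Its relative Slc43a1 stood at -0.07 ± 0.14, 0.11 ± 0.15 and -0.03 ± 0.14, at a mean signal of 5.28 just above the filter. Slc43a3 stood at 0.21 ± 0.16, 0.09 ± 0.17 and 0.21 ± 0.16.

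By their brightest probe sets the light chains of the basolateral exchangers missed the threshold. Slc7a7, mutated in human lysinuric protein intolerance, read 12.26, 12.32 and 12.39 in diabetic kidneys at 4 months, against 12.11, 12.11, 12.10 and 12.12 in controls 1 to 4, apart by a narrow margin. Its differences were 0.27 ± 0.08 (adjusted p = 0.0569, and adjusted p = 0.0301 with the block) at 2 months, 0.22 ± 0.09 (adjusted p = 0.291) at 4 months and 0.00 ± 0.08 at 8 months. The 2-month result depended on the settings, with a call in 8 of 14 and an adjusted p from 0.0114 to 0.36. Slc7a7 is also known from macrophages, whose 7 markers ran from 8.41 to 10.04 on average in diabetic arrays and from 7.26 to 7.76 in control arrays at 8 months. Slc7a8, the broad neutral exchanger, read 10.48, 10.85 and 10.99 in diabetic kidneys at 2 months, against 9.02, 10.27 and 10.78 in controls (0.62 ± 0.23, adjusted p = 0.155), and stood at 0.05 ± 0.25 and 0.15 ± 0.23 later. Its 2-month value was 0.39 without control 6, 0.27 without arrays 5 and 6, and 1.30 in those arrays alone. Slc7a6, the related exchanger of many other tissues, stood at 0.27 ± 0.11, 0.00 ± 0.12 and 0.26 ± 0.11. Its second probe set stood at -0.04 ± 0.12 and -0.01 ± 0.13 at 2 and 4 months and was called at 8 months (0.37 ± 0.12, adjusted p = 0.0304). The opposite-strand gene Slc7a6os stayed within 0.10 of 0. Slc7a5, the light chain of dividing and activated cells, read 6.92, 6.96 and 7.18 in diabetic kidneys at 8 months, against 6.71, 6.92 and 7.03 in controls (0.10 ± 0.08), and stood at 0.04 ± 0.08 and 0.18 ± 0.09 before.

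Slc7a1, the carrier that supplies most cells with arginine and lysine, was higher at 8 months. It read 8.14, 8.44 and 9.10 in diabetic kidneys, against 7.90, 8.15 and 8.20 in controls (probe set 1454991_at). The difference was 0.43 ± 0.11 (adjusted p = 0.00677), a second probe set gave 0.43 ± 0.10 (adjusted p = 0.00417) and one below the filter 0.08 ± 0.10. At 2 and 4 months Slc7a1 stood at -0.14 ± 0.11 and -0.11 ± 0.12. The effect at 8 months exceeded that at 2 months by 0.57 ± 0.16 (adjusted p = 0.038 in limma over all genes).

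Genes of the amino acid response that are no carriers gave 0 of 19 called at 2 and at 4 months, and 7 higher and 1 lower at 8 months (9.87% and 6.95% of all genes), with medians of 0.03, 0.08 and 0.19. Those that rose included Asns, which makes asparagine (0.94 ± 0.13), and Mthfd2, a mitochondrial folate enzyme (0.62 ± 0.09). Of the serine and glycine genes, Phgdh, the first enzyme of serine synthesis, rose (0.27 ± 0.09), while Psat1 (0.45 ± 0.22), Psph (0.17 ± 0.13) and Shmt2 (-0.10 ± 0.09) did not pass. Aldh18a1, which starts proline synthesis (0.74 ± 0.14), Cebpb (1.09 ± 0.26), Nupr1 (0.53 ± 0.17) and Eif4ebp1 (0.40 ± 0.13) also rose. Sesn2 fell by 0.36 on the log2 scale, and Atf4 itself stood at 0.09 ± 0.10. The mean signal of the list ran from 8.33 to 8.71 in diabetic and from 8.13 to 8.29 in control arrays at 8 months. Carriers that amino acid shortage is known to raise in cultured cells were mixed: Slc7a1 and Slc3a2 were called, while Slc38a2, Slc7a5 and Slc1a5 (-0.12 ± 0.11) were not.

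Slc1a2, the main glutamate carrier of astrocytes, was dim in kidney and read 5.81, 6.03 and 6.14 in diabetic kidneys at 2 months, against 5.38, 5.72 and 5.81 in controls (probe set 1438194_at), the lowest diabetic array lying just above the highest control. The difference was 0.32 ± 0.08 (adjusted p = 0.0272), next to 0.05 ± 0.09 at 4 months and -0.12 ± 0.08 at 8 months. The effect at 8 months minus that at 2 months was -0.44 ± 0.12 (adjusted p = 0.0256). Of its 4 other probe sets, all below the filter, 1 gave 0.05 and 3 gave -0.06 to -0.01 at 2 months. The mean of all probe sets gave 0.05 (adjusted p = 0.72). The call was also lost without diabetic array 1, 3 or 5 or control 2, 4 or 6, with an adjusted p from 0.0525 to 0.075. By its brightest probe set none of the other Slc1 genes was called. Slc1a4, a carrier of small neutral amino acids, stood at -0.30 ± 0.13 at 2 months (adjusted p = 0.249), while its other probe sets gave -0.50 ± 0.11 (adjusted p = 0.0149) and -0.37 ± 0.11 (adjusted p = 0.0702). The genes Slc1a3, Slc1a5 and Slc1a7 lay between -0.12 and 0.11 at all 3 ages.

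Of the carriers of osmolytes and creatine, only Slc6a8 was called. Slc6a8 takes up creatine and read 11.32, 11.50 and 11.75 in diabetic kidneys at 2 months, against 11.03, 11.11 and 11.64 in controls (probe set 1417116_at). Control 6, the array with the high actin ratio, was the control at 11.64, and all diabetic arrays lay above the other 5. The difference was 0.32 ± 0.08 (adjusted p = 0.028), and a second probe set gave 0.50 ± 0.12 (adjusted p = 0.028). It was 0.18 ± 0.09 at 4 months and -0.02 ± 0.08 at 8 months. In the 2-month arrays 5 and 6 alone it was 0.17 (adjusted p = 0.523), and without them 0.40 (adjusted p = 0.00611). Leaving out only control 6 gave 0.41. The 2-month call was lost where all arrays were given the same mean and SD (0.33, adjusted p = 0.103). With each age fitted alone it was lost too (0.32, adjusted p = 0.271). Leaving out diabetic array 1 or 3 or control 1, 2, 3 or 4 lost the call, with values from 0.28 to 0.32 and an adjusted p from 0.0535 to 0.0765.

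Slc6a6, the taurine carrier, read 11.70, 11.99 and 12.07 in diabetic kidneys at 2 months, against 12.13, 12.22 and 12.42 in controls. These groups did not overlap, but the fit, whose spread includes the wider later groups, gave -0.28 ± 0.16 (adjusted p = 0.409). It was called in none of 14 settings, with each age fitted alone among them (adjusted p at least 0.189). The other probe sets of Slc6a6 were positive at 2 months (0.32 ± 0.25, 0.03 ± 0.29 and 0.04 ± 0.28) and not called. The brightest one stood at -0.02 ± 0.17 and 0.18 ± 0.16 later. The betaine carrier Slc6a12, an osmolyte gene of the medulla, stood at 0.41 ± 0.28, 0.70 ± 0.31 and 0.40 ± 0.28, and its diabetic arrays spread from 5.47 to 7.74 at 2 months, its controls from 6.27 to 6.97. Slc6a13, a carrier of betaine, taurine and GABA, lay between -0.03 and 0.15.

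The glycine carrier Slc6a9 was higher in diabetic kidneys at 4 months. It read 7.65, 7.92 and 8.56, against 7.71, 7.55, 7.42 and 7.24 in controls 1 to 4 (probe set 1417636_at), so that 1 control lay within the diabetic arrays. The difference was 0.52 ± 0.12 (adjusted p = 0.028), a second probe set gave 0.30 ± 0.08 (adjusted p = 0.0589), and Slc6a9 stood at -0.14 ± 0.11 and 0.23 ± 0.11 at 2 and 8 months. Without controls 3 and 4 the 4-month value was 0.37 (adjusted p = 0.929), and with the clock covariate 0.45 (adjusted p = 0.105). The call was also lost without control 2 (0.54), 3 (0.50) or 4 (0.44) alone or without diabetic array 1 (0.42), 2 (0.48) or 5 (0.49), with an adjusted p from 0.0513 to 0.242, and over 13 settings it lay between 0.00686 and 0.929.

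Slc6a4, the serotonin carrier, read 6.79, 7.26 and 7.57 in diabetic kidneys at 8 months, against 7.32, 7.55 and 7.98 in controls (probe set 1417150_at), and 6.92, 7.10 and 7.23 at 2 months, against 7.31, 7.44 and 7.73 in controls. The groups were apart at 2 months and overlapped at 8 months. The differences were -0.37 ± 0.11 (adjusted p = 0.0679) at 2 months, 0.03 ± 0.12 at 4 months and -0.39 ± 0.11 (adjusted p = 0.0158) at 8 months. The last was lost without diabetic array 3 (-0.30, adjusted p = 0.07), control 1 (-0.31, adjusted p = 0.0619) or control 2 (-0.33, adjusted p = 0.0566). Slc6a2 stood between -0.14 and 0.02.

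**Figure D5:**
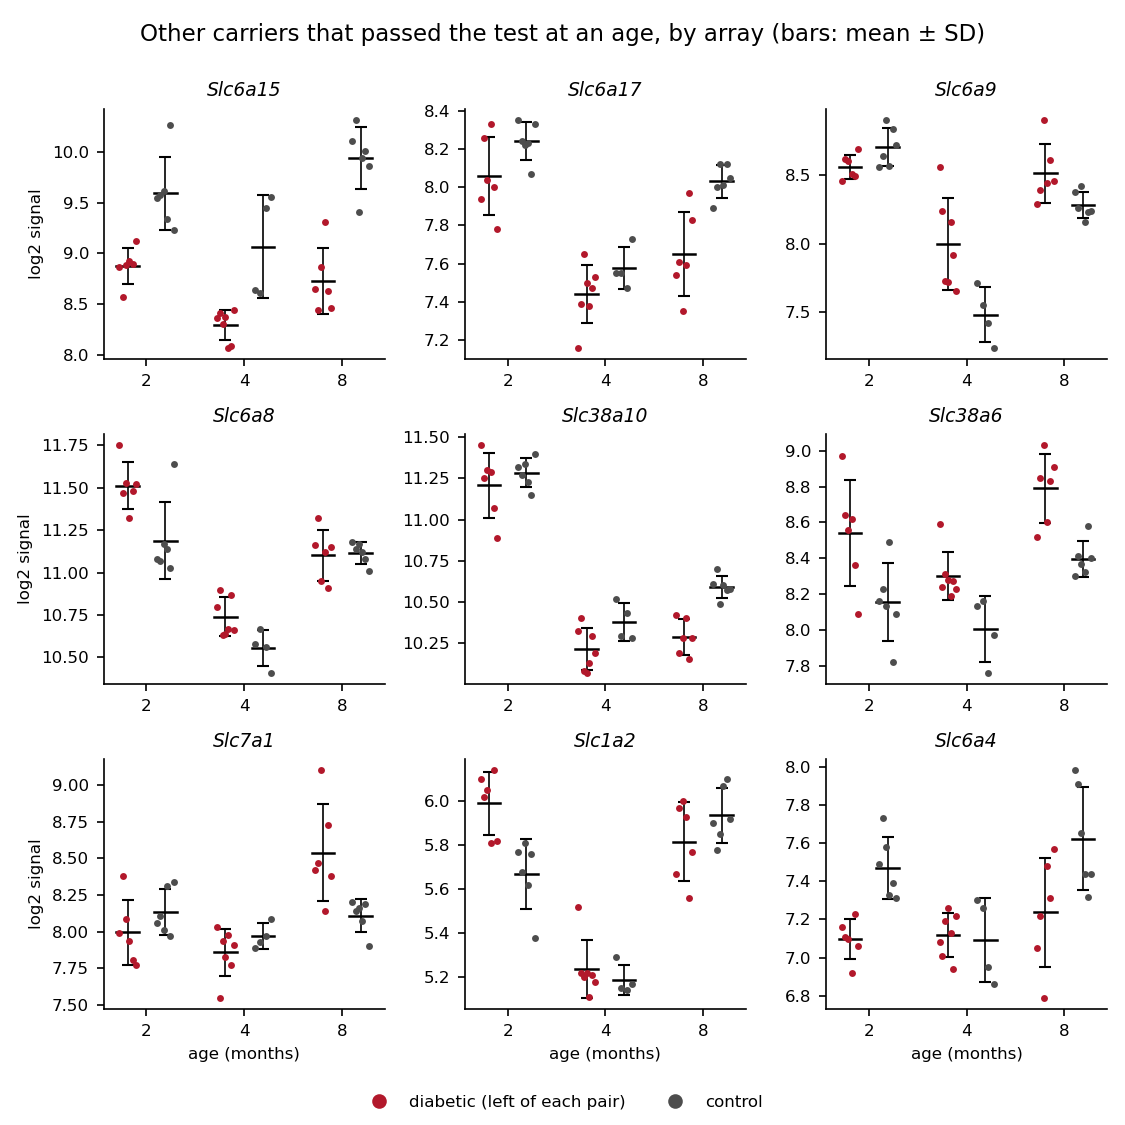
Log2 signals (y axes) of 9 further members that passed the test at an age, in each array by age in months (x axes), diabetic arrays left and control arrays right, with mean and SD as bars. Slc6a15 is lower in diabetic arrays at every age with no overlap, and Slc38a10 is apart at 8 months (10.15 to 10.42 in diabetic and 10.49 to 10.70 in control arrays).

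Slc38a10 and Slc38a6 moved in opposite directions at 8 months. Both belong to the sodium-coupled neutral carriers that favour glutamine. Slc38a10 (probe set 1427294_a_at) read 10.15, 10.28 and 10.42 in diabetic kidneys, against 10.49, 10.59 and 10.70 in controls, with no overlap, a difference of -0.30 ± 0.08 (adjusted p = 0.00416). All 6 of its other probe sets were negative at 8 months, from -0.29 to -0.06, and 2 of the 6 were called (-0.27 ± 0.07 and -0.29 ± 0.09). At 2 and 4 months it stood at -0.07 ± 0.08 and -0.17 ± 0.08.

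Slc38a6 (probe set 1457266_at) read 8.52, 8.84 and 9.03 in diabetic kidneys at 8 months, against 8.30, 8.39 and 8.58 in controls. At 2 months it read 8.09, 8.59 and 8.97, against 7.82, 8.15 and 8.49 in controls, and at 4 months 8.19, 8.27 and 8.59, against 8.13, 8.16, 7.76 and 7.97 in controls 1 to 4, where the groups did not overlap. The differences were 0.38 ± 0.11 (adjusted p = 0.0526, and adjusted p = 0.025 with the block) at 2 months, 0.30 ± 0.12 (adjusted p = 0.308) at 4 months and 0.39 ± 0.11 (adjusted p = 0.0107) at 8 months. The 2-month result depended on the settings, with a call in 9 of 14 and an adjusted p from 0.0104 to 0.322. Without controls 3 and 4 the 4-month value was 0.16. Its other probe set lay below the filter and gave 0.02 ± 0.09 at 8 months.

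Slc38a2, which cells raise when amino acids run short, read 9.32, 9.73 and 10.61 in diabetic kidneys at 8 months, against 9.26, 9.50 and 9.82 in controls (0.29 ± 0.16, adjusted p = 0.247; 0.13 without diabetic array 3), and stood at -0.11 ± 0.16 and 0.15 ± 0.18 before. Slc38a9, the arginine sensor of the lysosome, Slc38a7, its glutamine exporter, and Slc38a1 lay between -0.14 and 0.10 at all 3 ages by their brightest probe sets. A second probe set of Slc38a1 gave 0.40 ± 0.11 at 8 months and was called (adjusted p = 0.0116). The proton-coupled carrier Slc36a1 stood at 0.01 ± 0.08, 0.10 ± 0.09 and 0.12 ± 0.08 and read 8.90, 9.20 and 9.26 in diabetic kidneys at 8 months, against 8.90, 9.05 and 9.08 in controls. Slc36a4 lay between -0.08 and 0.14, and Slc7a4 between -0.13 and 0.01.

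Slc36a2 takes up proline and glycine and also marks brown fat cells. It read 5.7, 5.81 and 6.41 in diabetic kidneys at 8 months, against 5.25, 6.40 and 7.16 in controls, a difference of -0.41 ± 0.23 (adjusted p = 0.248), with 0.08 ± 0.23 and -0.36 ± 0.25 at 2 and 4 months. Without control 1 the 8-month value was -0.63 (adjusted p = 0.0445), without control 6 it was -0.25 (adjusted p = 0.524), and without control 3 the 4-month value was -0.55 (adjusted p = 0.652). The fat markers Ucp1 and Adipoq averaged 6.68 to 7.27 in diabetic and 4.74 to 8.65 in control arrays at 8 months. Control 1 was lowest of that group for both Slc36a2 (5.25) and the fat markers (4.74), and diabetic array 1 at 2 months was highest of its group for both (7.15 and 7.93). Ucp1 was lower in diabetic arrays by -2.28 ± 0.50 at 4 months and -2.20 ± 0.46 at 8 months, and the part of fat around the kidney in Slc36a2 was not tested.

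The other 19 members lay below the filter, at mean signals from 3.99 to 5.17. They were Slc1a6, Slc6a3, Slc6a5, Slc6a7, Slc6a11, Slc6a14, Slc6a16, Slc6a21, Slc7a2, Slc7a3, Slc7a10, Slc7a11, Slc7a14, Slc7a15, Slc36a3, Slc38a4 and Slc38a5 and the opposite-strand genes Slc6a19os and Slc36a1os. Slc36a3, at 5.17, was the nearest below the filter. In a limma fit of all genes without the filter, 1 of the 19 was higher at 8 months, Slc7a10 (0.30 ± 0.10, adjusted p = 0.0345), and 2 were lower, Slc38a5 (-0.24 ± 0.08, adjusted p = 0.032) and Slc6a7 (-0.26 ± 0.07, adjusted p = 0.0148). None of the 19 was called at 2 or 4 months. In the fit with the filter, 9.87% of all genes were higher at 8 months and 6.95% lower. The shares for the fit without it are not given here, and the dim signals limit these calls. Slc7a11 read 5.09, 5.16 and 5.25 in diabetic kidneys at 8 months, against 5.00, 5.17 and 5.35 in controls (-0.01 ± 0.12).

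Carriers of amino acids and peptides outside these families, 12 of them tested, gave 1 lower at 2 months, 1 lower at 4 months, and 3 higher and 1 lower at 8 months, with medians of 0.12, 0.10 and -0.07. Over all genes 1.78% were lower at 2 months and 0.554% at 4 months, and 9.87% were higher and 6.95% lower at 8 months. The lower gene was each time Slc15a2, the brush border carrier of small peptides (-0.65 ± 0.09, -0.62 ± 0.09 and -0.74 ± 0.09). The higher genes at 8 months were Slc16a10, a basolateral carrier of aromatic amino acids (0.45 ± 0.12), Slc25a22, a mitochondrial glutamate carrier (0.42 ± 0.15), and Slc15a3, a lysosomal peptide carrier known from macrophages (1.03 ± 0.14). Macrophage markers rose in 6 of 7 cases at that age, and 5 of 5 tested markers of tubular injury rose, with mean signals of the injury list from 8.02 to 10.38 in diabetic and from 6.27 to 6.81 in control arrays. Their part in the members' differences was not tested.

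Whether the diabetes effect differed between the ages was tested by an F test over the 3 effects. It called 0 of 43 members in limma, where 2.5% of all genes were called, and 9 members had an unadjusted p under 0.05 (14.7% of all genes). The lowest adjusted p were 0.0564 for Slc7a1, 0.0595 for Slc6a9 and 0.0723 for Slc1a2. The single difference of 8 from 2 months called 2 members, Slc7a1 and Slc1a2 (3.89% of all genes), and those of 4 from 2 months and 8 from 4 months called none (0% and 0.877%), with 6 and 4 members at an unadjusted p under 0.05 (5.08% and 12.4% of all genes). Genes called at one age and not at another, such as Slc3a1 or Slc7a9, were thus not shown to differ between ages.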

How the data were processed

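Whole-kidney RNA was measured on 35 Affymetrix arrays. The authors deposited probe set values on a log2 scale (45101 per array), while their background correction, summarization and normalization were not given in the sources used here. Probe sets that name 1 gene were used (34945), the brightest per gene (18193 genes); of the transporters' dimmer ones, 3 were called where the brightest was not. Genes with a mean log2 signal below 5.273, the 40th percentile, were not tested. A mean per group of diabetes state and age was fitted over all 35 with limma (version 3.58.1) in R (version 4.3.3, with data.table, version 1.17.8), with 1 spread per gene, so its SE is too small where compared groups vary more than the rest. Two-sided p-values were adjusted by Benjamini and Hochberg over 13004 genes. Errors after differences are SE, those after means SD. Arrays have no read depth, and their number limits the precision.

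The members, gene lists and tests were chosen with earlier results of these data known. Every member is named, and full values go to called members and to a list of textbook kidney carriers. Genes and probe sets came from the platform annotation, promoters from RefSeq. Same-numbered diabetic and control arrays correlated after removing group means at 2 months (r from 0.246 to 0.444, 6 of 6 pairs above 0.1), and a replicate block is given there. Arrays with different numbers were not compared, and arrays 5 and 6 of both groups lay apart from the others at that age. The check therefore cannot show pairing by number. At 4 months 1 of 4 pairs and at 8 months 2 of 6 pairs were above 0.1. Other settings (normalization, filter, probe sets, variance model, clock covariate and left-out arrays) are given at the end. The setting of arrays 5 and 6 alone was added after seeing the data. No protein sequence was used here.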

Additional observations from a re-analysis of the deposited data

Results flagged for a closer look

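Among 27 members described in full, 17 of 162 groups (10.5%) had an array far from the rest of its group, by the gap to the nearest array relative to the range, where chance flags about 1 group in 20. Of these, 6 are control 6 at 2 months, the array with the actin ratio of 2.56: Slc6a20b (10.78), Slc7a12 (11.42), Slc7a13 (6.24), Slc7a8 (9.02) and Slc7a9 (12.32) were low in it, and Slc6a8 (11.64) was high. At 2 months, diabetic array 1 was high for Slc36a2 (7.15) and low for Slc6a6 (11.7), control 4 was low for Slc38a2 (9.15), and control 5 was high for Slc6a15 (10.26). At 4 months, diabetic array 1 was high for Slc1a2 (5.52) and Slc38a6 (8.59), and diabetic array 2 was high for Slc38a2 (10.21) and Slc6a18 (11.55) and low for Slc7a5 (5.76). At 8 months, diabetic array 3 was high for Slc7a5 (7.18) and control 5 for Slc7a12 (12.3).

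The difference of the diabetes effect at 8 months from that at 2 months was called for Slc1a2 (-0.44, adjusted p = 0.0256 in limma) and Slc7a1 (0.57, adjusted p = 0.038). In this contrast 3.89% of all genes were called. The F test over ages called neither (adjusted p = 0.0723 and 0.0564). For Slc1a2 the 2-month effect came from 1 dim probe set, and the mean of all its probe sets gave 0.05.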

How the results depend on the processing

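Of 21 called differences of single members, 9 stayed called in all settings other than the leaving out of 1 array. Without any 1 array 12 stayed called, and no direction reversed. Of 60 uncalled ones, 50 were called in none of the settings other than the leaving out of 1 array. Among these 50, Slc36a2 at 8 months was called without control 1 (-0.63, adjusted p = 0.0445). At 2 months (7 members called) the replicate block called 11, arrays 5 and 6 as a batch 12, arrays of each age fitted alone 2, and arrays 5 and 6 alone 1. At 4 months (2 called) scaling every array to one mean and SD called 1, the replicate block 1, age alone 4, the clock covariate 0, leaving out controls 3 and 4 0, and leaving out the 2-month arrays 5 and 6 called 5. At 8 months (12 called) all settings stayed within 1.5 times, including the replicate block. For the F test over ages (0 called), scaling called 1, the mean of all probe sets 2, the replicate block 2, leaving out arrays 5 and 6 2, and their batch term 4. Leaving out 1 array called 4 to 10 members at 2 months (lowest without control 2, highest without diabetic array 6), 0 to 2 at 4 months (0 without diabetic array 5, control 3 or control 4), 10 to 13 at 8 months and 0 to 3 in the F test (highest without diabetic array 4 of 8 months). The cause was not tested. The share of all genes called in each setting is not given here. These counts are therefore not read as particular to the members. At 4 and 8 months fewer same-numbered pairs correlated, and the check in the methods cannot show pairing at any age. The block lost the calls of Slc6a15 at 4 months (adjusted p = 0.18) and Slc3a2 at 8 months (adjusted p = 0.0593). Dim signals limit Slc1a2 and the 19 members below the filter.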
